A study of Mus musculus with 24 samples.

Results

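The primary granule genes examined here were Mpo, Elane, Prtn3, Ctsg, Ms4a3, Lyz2 and Cst7, 7 of the 21938 protein-coding genes on the GENCODE M21 annotation of mm10. They were chosen by name, not from a measured value, although earlier results of these data were known. Every ATAC-seq peak in the 11 peak lists, and every site in the 3 tables of differing sites, that lay within a member or 30 kb of it was taken. Merged across the lists, the peaks formed 56 of the 100442 accessible regions of the series, and the tables held 3, 8 and 47 sites near the members.

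Primary, or azurophil, granules are the first granules that a developing neutrophil makes, and their contents are transcribed mainly at the promyelocyte stage, which follows the granulocyte-monocyte progenitor (GMP). Mpo encodes myeloperoxidase, which makes hypochlorous acid. Elane, Prtn3 and Ctsg encode the serine proteases neutrophil elastase, proteinase 3 and cathepsin G, and Lyz2 encodes lysozyme. Ms4a3 is a membrane protein used as a marker of GMPs, and Cst7 encodes cystatin F, which inhibits the cathepsin that activates the granule proteases. The transcription factors Pu.1, C/EBP, Runx1 and Myb are known regulators of such genes.

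ATAC-seq measures open chromatin as the places where the transposase Tn5 can insert adaptors, here in cells sorted from bone marrow of C57BL/6 mice. All mice, controls included, carried 1 Cre allele: Daxx-WT mice were Daxx +/+, Daxx-KO mice were Daxx F/F and DKO mice were Daxx F/F and Pu.1 F/F, so that every comparison was between mice with Cre. Long-term haematopoietic stem cells (LT-HSCs), common myeloid progenitors (CMPs) and GMPs carried no time in their labels, which the study's methods give as 3 weeks post-induction, and came from 2 libraries for each genotype; these were mice with tamoxifen-inducible RosaCreERT2, which acts in all tissues. LT-HSCs at 3 days post-induction (d.p.i.) came from 2 Daxx-WT and 3 Daxx-KO libraries. KLS cells, the stem and progenitor fraction that is c-Kit+, Sca-1+ and lineage-negative, were taken at 3 weeks post-induction (w.p.i.) from 2 Daxx-WT, 3 Daxx-KO and 2 DKO libraries, and the DKO mice used the interferon-inducible Mx1Cre. The early LT-HSC mice had RosaCreERT2, and the labels do not give the Cre line of the Daxx-WT and Daxx-KO KLS libraries. By the study's description the early LT-HSC controls included a Daxx +/F animal, which the labels do not mark. The study describes its libraries as biological replicates.

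The deleted genes matched the labels. The site over the first part of Daxx (chr17:33909601-33912700) had 54.56, 90.10 and 61.15 scaled reads in the Daxx-KO and 255.43 and 294.59 in the Daxx-WT KLS libraries, and the DKO libraries had 97.56 and 74.01 over nearly the same site. At 3 d.p.i. the 3 Daxx-KO LT-HSC libraries had 69.74, 108.81 and 61.23 over chr17:33909701-33911600, and the Daxx-WT libraries 200.57 and 365.74. The site over the end of Spi1, which encodes Pu.1 (chr2:91114801-91115800), had 2.12 and 4.68 in the DKO libraries against 31.06 and 58.13 in Daxx-WT, while the other listed sites over Spi1 were higher in DKO. Each group has 1 peak list without values per library, so presence or absence of a peak in a list has no test. Lists differed in length from 22156 (DKO KLS) to 70455 peaks (Daxx-KO LT-HSC). The lists at 3 d.p.i. and of KLS cells are named as conservative IDR lists, which keep peaks reproducible between replicates, and the others are not. Protocol and sequencer also differed between these kinds of list. Differences between them in cells, protocol and peak calling cannot be told apart. The stem-cell markers Procr, Fgd5, Hlf, Mecom and Slamf1 had a promoter peak in 5 of 5 cases in both LT-HSC lists without a time, and in 4 of 5 in both GMP lists. Of all protein-coding genes, 67.8% and 68.9% had one in these Daxx-WT and Daxx-KO LT-HSC lists, and 62.9% and 60.4% in the GMP lists.

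The sequence just before the start of each member is shown because the 4 members with no peak at this place in any LT-HSC list (Mpo, Elane, Ctsg and Ms4a3) can there be set beside the 2 that had one (Lyz2 and Cst7) and beside Prtn3, which had none in any list. Each line holds the 250 bases before the start of the principal coding transcript in GENCODE, 5′ to 3′ on the strand of the gene, from the RefSeq genome sequence of GRCm38.p6, the build that mm10 names; all 7 genes also had a promoter entry in the RefSeq table of that build. Capitals mark matches on either strand to GAGGAA (a core bound by Pu.1 and other Ets factors), TTGCNNAA (C/EBP), TGTGGT (Runx) and TAACNG (Myb).
Mpo, chr11:87793331-87793580, plus strand: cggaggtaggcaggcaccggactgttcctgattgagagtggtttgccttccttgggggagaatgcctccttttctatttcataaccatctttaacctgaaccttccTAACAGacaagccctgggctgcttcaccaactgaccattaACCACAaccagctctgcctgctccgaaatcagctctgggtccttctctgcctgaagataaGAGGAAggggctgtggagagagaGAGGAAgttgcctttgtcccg
Elane, chr10:79885997-79886246, plus strand: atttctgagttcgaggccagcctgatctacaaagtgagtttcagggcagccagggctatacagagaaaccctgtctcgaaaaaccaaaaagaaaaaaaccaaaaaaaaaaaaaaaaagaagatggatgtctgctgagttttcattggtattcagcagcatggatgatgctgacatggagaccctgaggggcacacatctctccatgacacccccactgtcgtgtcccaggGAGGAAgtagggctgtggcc
Prtn3, chr10:79879364-79879613, plus strand: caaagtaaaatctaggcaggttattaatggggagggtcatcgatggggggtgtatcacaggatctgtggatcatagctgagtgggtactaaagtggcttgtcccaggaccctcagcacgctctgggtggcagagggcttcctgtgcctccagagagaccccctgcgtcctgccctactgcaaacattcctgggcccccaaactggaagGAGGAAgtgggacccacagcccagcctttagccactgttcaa
Ctsg, chr14:56102575-56102824, minus strand: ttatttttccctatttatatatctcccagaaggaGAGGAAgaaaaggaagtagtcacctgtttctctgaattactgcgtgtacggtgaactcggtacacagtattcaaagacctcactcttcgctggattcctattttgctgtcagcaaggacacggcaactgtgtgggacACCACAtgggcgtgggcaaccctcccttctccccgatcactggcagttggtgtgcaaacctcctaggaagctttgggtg
Ms4a3, chr19:11640835-11641084, minus strand: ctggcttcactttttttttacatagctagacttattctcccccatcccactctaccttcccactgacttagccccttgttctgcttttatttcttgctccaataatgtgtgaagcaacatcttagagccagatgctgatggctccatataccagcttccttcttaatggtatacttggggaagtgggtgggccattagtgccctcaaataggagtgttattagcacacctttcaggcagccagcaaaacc
Lyz2, chr10:117282322-117282571, minus strand: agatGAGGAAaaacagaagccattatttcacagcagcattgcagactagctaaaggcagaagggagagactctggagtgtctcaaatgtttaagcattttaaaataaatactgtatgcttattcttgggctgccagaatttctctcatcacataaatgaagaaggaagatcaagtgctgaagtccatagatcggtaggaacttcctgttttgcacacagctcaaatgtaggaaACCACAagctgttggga
Cst7, chr2:150570165-150570414, plus strand: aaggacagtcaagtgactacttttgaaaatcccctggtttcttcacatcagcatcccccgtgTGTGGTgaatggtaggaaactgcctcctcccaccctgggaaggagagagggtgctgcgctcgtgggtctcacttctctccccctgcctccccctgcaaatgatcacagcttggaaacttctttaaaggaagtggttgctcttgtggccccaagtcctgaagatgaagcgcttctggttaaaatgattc

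GAGGAA was present before 5 of the 7 members (all but Ms4a3 and Cst7), and before 22.5% of all 21938 protein-coding genes. In Mpo it occurred with its first base 44 and 21 bases before the start, in Elane 20 bases and in Prtn3 42 bases before it, whereas in Ctsg and Lyz2 it lay 216 and 246 bases away. The Runx core was present in 4 of 7 (Mpo, Ctsg, Lyz2 and Cst7; 12.7% of all genes), the Myb core in 1 of 7 (Mpo; 18.4%) and the C/EBP letters in 0 of 7 (8.96%). The windows held 4, 3, 3, 7, 0, 1 and 4 CpG in the order shown, all under the median of 9 over all genes. However, only 2 of the 7 had 2 CpG or fewer, near the share of 24.1% over all genes. These matches describe letters only and were not tested for binding.

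Promoter peaks of the members were fewest in Daxx-WT LT-HSCs at 3 d.p.i. and most frequent in GMPs (the plot of promoter peaks by list), lists that were called in different ways. Within 1000 bp of any annotated start, 4 of 7 members had a peak in the Daxx-WT LT-HSC list and 4 in the Daxx-KO LT-HSC list, where 67.8% and 68.9% of all protein-coding genes had one. The CMP lists had 6 of 7 in both genotypes (65% of all genes in Daxx-WT and 61.7% in Daxx-KO), and the GMP lists had 7 of 7 in both (62.9% and 60.4%). At 3 d.p.i. the LT-HSC lists had 1 of 7 (Lyz2) in Daxx-WT and 3 of 7 (Prtn3, Lyz2 and Cst7) in Daxx-KO, against 62.3% and 64.5% of all genes. In KLS cells, 4 of 7 had a peak in Daxx-WT and 4 in Daxx-KO (58.7% and 62% of all genes), and 2 of 7 in DKO (51.1%). The members were thus above the share of all genes in the CMP and GMP lists, and below it in every LT-HSC and KLS list, although by less than a single gene in the Daxx-WT and Daxx-KO lists of KLS cells and of LT-HSCs without a time, which are therefore near the share of all genes.

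**Figure D1:**
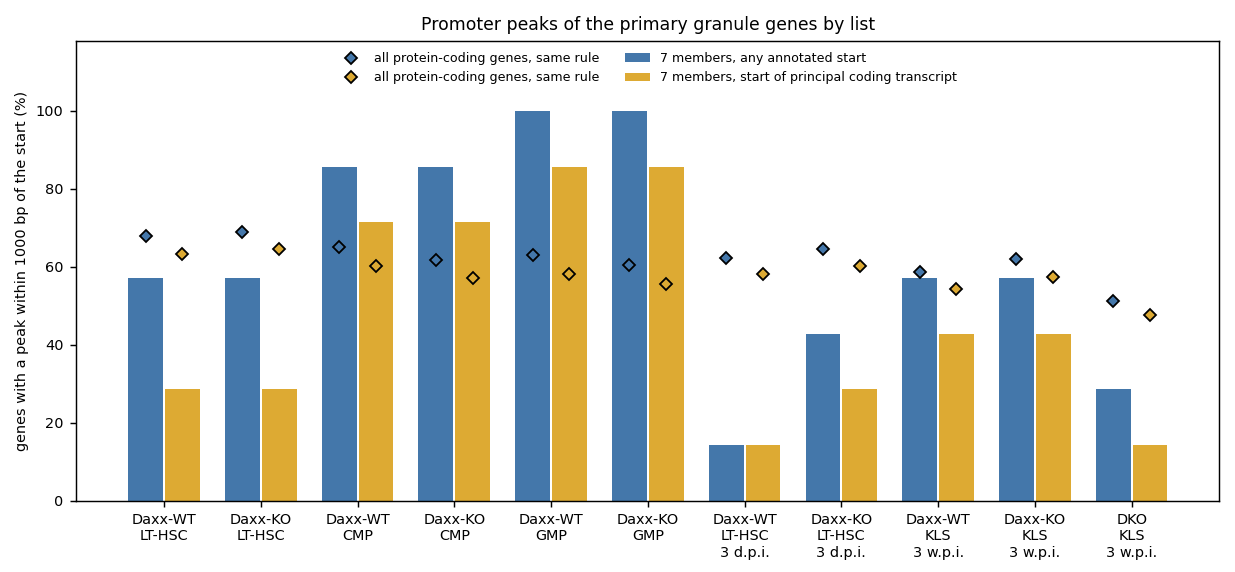
Share of the 7 primary granule genes (bars) and of all protein-coding genes (diamonds) with a peak within 1000 bp of a start, in %, for each of the 11 peak lists, by any annotated start (blue) and by the start of the principal coding transcript (yellow). The bars pass the diamonds in the CMP and GMP lists and lie under them in all LT-HSC and KLS lists; each bar is a count out of 7 from a pooled list, so it has no error.

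Counting starts of minor transcripts mattered for Mpo and Prtn3. Around the start of the principal coding transcript alone, a count made after the data were seen, 2 of 7 members had a peak in the LT-HSC list of each genotype (63.4% of all genes in Daxx-WT and 64.6% in Daxx-KO), 5 of 7 in each CMP list (60.1% and 57%) and 6 of 7 in each GMP list (58.1% and 55.7%). At 3 d.p.i. these were 1 in Daxx-WT LT-HSCs and 2 in Daxx-KO LT-HSCs (58.1% and 60.1%). In KLS cells they were 3 in Daxx-WT, 3 in Daxx-KO and 1 in DKO (54.3%, 57.4% and 47.6%).

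Over the whole windows, 43 of the 56 regions were held by a GMP list. Of these 43, 22 were also held by the Daxx-WT LT-HSC list (51.2%, Wilson 95% interval 36.8 to 65.4, which covers counting error only), and 23 by the Daxx-KO LT-HSC list (53.5%, 38.9 to 67.5). Over all regions of the series held by a GMP list the shares were 64.6% and 67.1%. At 3 d.p.i. 15 of 43 (34.9%, 22.4 to 49.8) were held in Daxx-WT LT-HSCs and 19 of 43 (44.2%, 30.4 to 58.9) in Daxx-KO LT-HSCs, against 46.8% and 53.6% of all such regions. The share of the members' GMP regions already open in stem cells was thus below that of all GMP regions in all 4 lists, but in each list the series value lay inside the interval of the members, and the intervals of the genotypes overlapped.

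Presence was also compared between genotypes, with the share over all regions of the series beside each count. Of the 34 regions held by either LT-HSC list, 4 were only in Daxx-KO and 3 only in Daxx-WT (13% and 5.93% of all regions). Of 40 in CMPs, 0 were only in Daxx-KO and 10 only in Daxx-WT (4.51% and 26.7%), and of 43 in GMPs, 3 were only in Daxx-KO and 9 only in Daxx-WT (3.22% and 26.3%). At 3 d.p.i., 6 of 24 were only in Daxx-KO and 1 only in Daxx-WT (22.3% and 6.59%). In KLS cells 7 of 25 were only in Daxx-KO and 0 only in Daxx-WT (29.7% and 5.53%). Between DKO and Daxx-WT KLS cells, 6 of 24 were only in DKO (25%, Wilson 95% interval 12 to 44.9) and 12 only in Daxx-WT (12.2% and 42.1%). The order of these counts turned when the scored lists were cut to the length of the DKO list. Then 9 of 17 regions were only in DKO and 5 only in Daxx-WT. Between the Daxx-KO and Daxx-WT KLS lists 1 of 9 was only in Daxx-KO and 2 only in Daxx-WT. Shares over all regions were not counted after this cut, so the turn is not shown to be particular to the members.

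**Figure D2:**
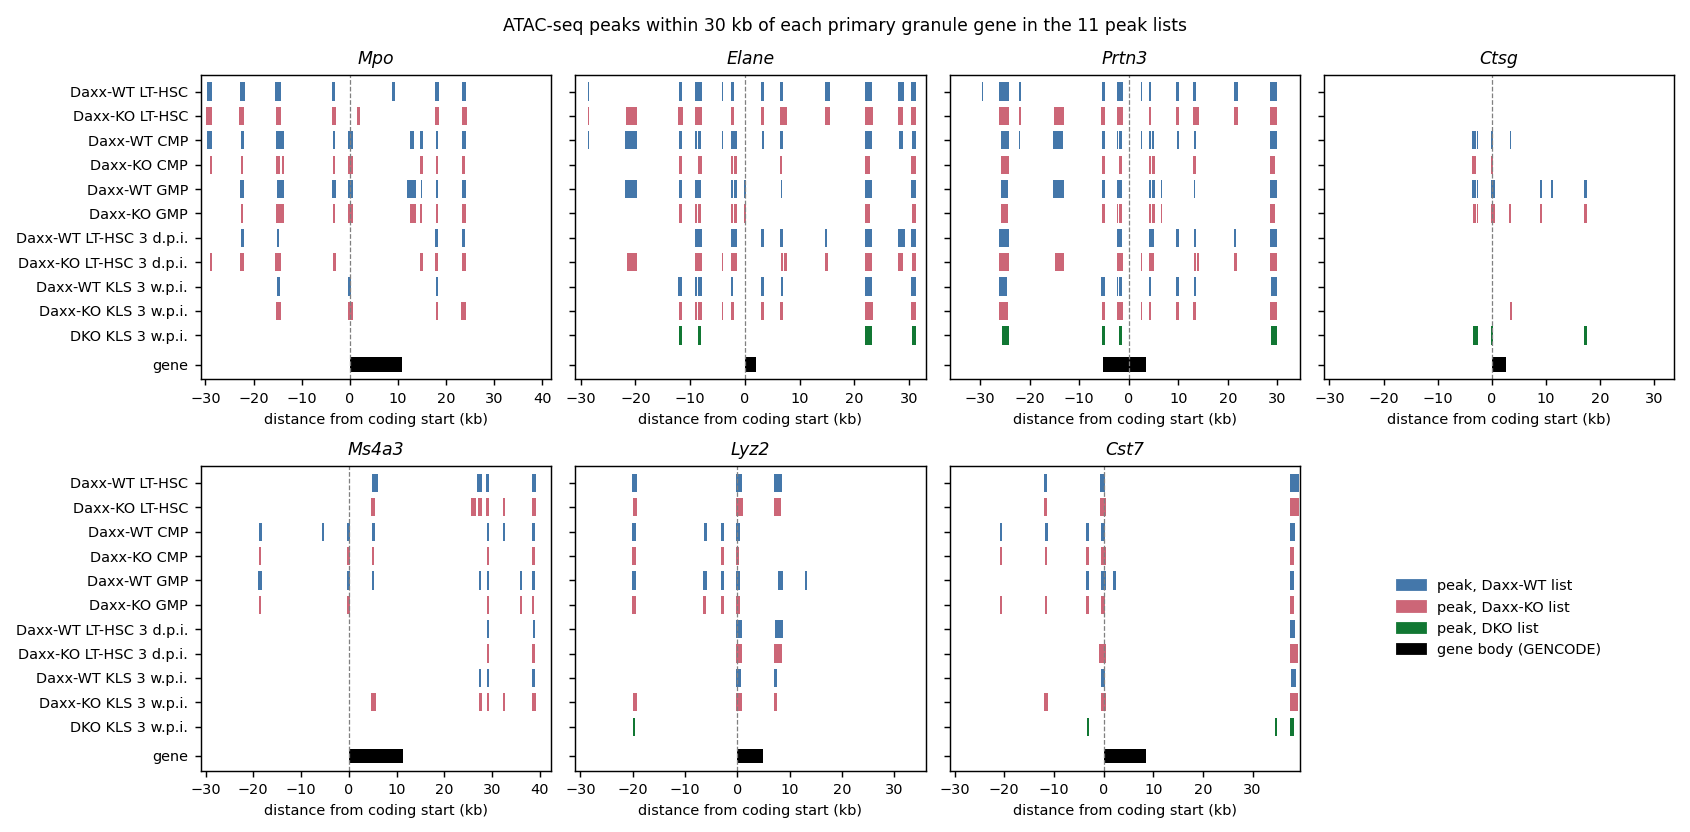
Peaks (bars) of the 11 lists around each primary granule gene, by distance from the start of the principal coding transcript in kb, negative upstream; the narrowest bars are widened so that they can be seen, the black bar is the gene, and blue, red and green mark Daxx-WT, Daxx-KO and DKO lists. Ctsg has no peak in any of the 4 LT-HSC lists, and the GMP lists hold 5 of its 6 regions each.

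Ctsg (chr14:56099881-56102574, minus strand, 5 exons) had an empty window in LT-HSCs. None of its 6 regions was held by any of the 4 LT-HSC lists or by the Daxx-WT KLS list. The promoter region (chr14:56102009-56102776, over exon 1 and intron 1) was held by the CMP and GMP lists of both genotypes, with peaks of 466 and 401 bp in Daxx-WT and Daxx-KO CMPs and 768 and 699 bp in Daxx-WT and Daxx-KO GMPs. The intergenic region centred 3.1 kb upstream (chr14:56105068-56106186) was held by the same lists. Both were also held by the DKO KLS list, as peaks of 444 and 964 bp with fold enrichments of 4.46 and 3.53, higher than 39.9% and 14.4% of the peaks in that list. A region 9.0 kb downstream of the start was in both GMP lists, a region 11.1 kb downstream only in Daxx-WT GMPs, and the Daxx-KO KLS list held 1 region, 3.4 kb downstream (368 bp), which Daxx-WT CMPs and Daxx-KO GMPs also held. The last region lay 17.3 kb downstream, at the start of Mcpt8, which encodes a protease of basophils, and was in both GMP lists and in DKO KLS cells.

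The upstream region of Ctsg is shown as the central 200 bases of its larger peak in Daxx-WT GMPs, since it opened in the same lists as the promoter; a single Myb match is in capitals.
Ctsg, 3.3 kb upstream, chr14:56105730-56105929, plus strand: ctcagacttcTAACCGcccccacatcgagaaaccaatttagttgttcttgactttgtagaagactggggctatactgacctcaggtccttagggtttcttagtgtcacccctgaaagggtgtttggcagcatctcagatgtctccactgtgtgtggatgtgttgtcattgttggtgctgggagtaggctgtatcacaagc
Of all 45659 distal peaks in that list, cut to the same length, 20.7% held the Myb letters and 36.1% held GAGGAA, which is absent here.

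Elane (chr10:79886247-79888215, 5 exons) had a promoter peak in GMPs only: 361 bp in Daxx-WT and 342 bp in Daxx-KO (chr10:79886081-79886441, over exon 1 and intron 1). Its neighbour region upstream (chr10:79883670-79884843, centred 2.0 kb before the start and between Prtn3 and Elane) was in every list but DKO, yet the peaks in it differed in extent. In the LT-HSC lists without a time and in the KLS lists the peak ended by chr10:79884206, whereas in CMPs and GMPs of both genotypes another peak, of 501 to 569 bp, covered the side nearer to Elane. At 3 d.p.i. a single peak of 1105 bp in Daxx-WT and 1136 bp in Daxx-KO LT-HSCs spanned both sides. The central bases of this other peak in Daxx-WT GMPs, with 1 Myb match, read as follows.
Elane, 1.7 kb upstream, chr10:79884460-79884659, plus strand: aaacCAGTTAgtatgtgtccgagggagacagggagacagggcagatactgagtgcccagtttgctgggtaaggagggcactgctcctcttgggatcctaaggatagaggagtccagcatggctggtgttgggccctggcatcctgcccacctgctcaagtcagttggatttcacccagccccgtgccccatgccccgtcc

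Prtn3 (chr10:79874476-79883174, 5 exons in its principal transcript) lies just before Elane, so their 30-kb windows share most regions: 13 in each window and 15 in all. No list held a peak within 1000 bp of its coding start (chr10:79879614). Its promoter peak by the wider rule was the region chr10:79873950-79874916, 5.2 kb before the coding start, where a noncoding Prtn3 transcript begins beside the divergent gene Plppr3. That region was in 9 of the 11 lists, all but the LT-HSC lists at 3 d.p.i., with widths of 499 to 967 bp. A narrow region over exon 4 (chr10:79882024-79882328), at the start of another minor transcript, was in Daxx-WT LT-HSCs, Daxx-WT CMPs, Daxx-KO LT-HSCs at 3 d.p.i. and Daxx-KO KLS cells, with peaks of 250 to 281 bp. The region 1.8 kb before the coding start (chr10:79877169-79878461, inside the gene by the noncoding transcript) was in all 11 lists. In the scored lists it ranged from a fold enrichment of 2.91 for the smaller Daxx-WT KLS peak to 4.73 in Daxx-KO KLS cells, so it was open in stem cells of both genotypes.

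Mpo (chr11:87793581-87804413, plus strand, 12 regions) had no peak at its coding start in any of the 4 LT-HSC lists or in DKO KLS cells. The promoter region (chr11:87793194-87794217, over exon 1) was in the CMP and GMP lists of both genotypes at 943 to 974 bp, and in KLS cells of both genotypes at 627 bp in Daxx-WT and 970 bp in Daxx-KO. The KLS peaks were weak, with fold enrichments of 3.85 and 3.67 that passed 10.3% and 6.28% of the peaks of their lists. No other protein-coding gene had this combination of presence over the 11 lists at its principal start, a rule chosen after the data were seen. By any annotated start, 16 other genes had the same presence as Mpo. Inside the gene, 1 peak of 697 bp was found only in Daxx-KO LT-HSCs, 1.9 kb after the start, and 1 of 504 bp only in Daxx-WT LT-HSCs, 9.1 kb after it; each lay within 1000 bp of the start of a minor Mpo transcript.

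Around Mpo, the region 3.3 kb upstream (chr11:87789826-87790668) was already in the LT-HSC lists of both genotypes, at 664 and 669 bp, and in CMPs and GMPs. In LT-HSCs at 3 d.p.i. it was in Daxx-KO (630 bp) and not in Daxx-WT. The region 15.0 kb downstream of the start, inside the neighbouring peroxidase gene Lpo (chr11:87808239-87808843), was in CMPs and GMPs of both genotypes and in Daxx-KO LT-HSCs at 3 d.p.i. (595 bp, fold enrichment 5.71), and in no other stem-cell list. DKO KLS cells had no peak in any of the 12 regions. Another distal sequence examined, 3.2 kb upstream of Cst7, held no match to any motif searched and is not shown. GAGGAA was in 0 of the 4 distal sequences examined, against 36.1% of all distal Daxx-WT GMP peaks cut to this length. The 200 bases at the centre of the GMP peak in Lpo are printed because this place is also a listed site at 3 d.p.i. Capitals mark 1 Runx match, and 23.9% of the distal peaks held these letters.
Mpo, 14.9 kb downstream, chr11:87808353-87808552, plus strand: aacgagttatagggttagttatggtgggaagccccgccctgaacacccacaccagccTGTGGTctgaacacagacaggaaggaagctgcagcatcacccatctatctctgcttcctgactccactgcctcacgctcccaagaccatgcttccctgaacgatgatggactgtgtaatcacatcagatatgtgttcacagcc

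Ms4a3 (chr19:11629496-11640851, minus strand) had its promoter peak (chr19:11640627-11641211) in the CMP and GMP lists alone, at 481 and 450 bp in CMPs and 585 and 560 bp in GMPs of Daxx-WT and Daxx-KO. A region in its body was held by some lists of less mature cells. This region around exon 4 (chr19:11634800-11636094, 5.4 kb after the start) was held by both LT-HSC lists without a time, at 1286 bp in Daxx-WT and 836 bp in Daxx-KO, by both CMP lists, by Daxx-WT GMPs and by Daxx-KO KLS cells, but by neither LT-HSC list at 3 d.p.i. nor by Daxx-WT KLS cells. The widths in the myeloid lists were smaller, 669 and 382 bp in CMPs and 365 bp in Daxx-WT GMPs, and Daxx-KO GMPs had none. Peaks were narrower in these lists as a whole. Median widths of all peaks were 889 and 916 bp in the Daxx-WT and Daxx-KO LT-HSC lists without a time. They were 651 and 661 bp in the CMP lists and 607 bp in Daxx-WT GMPs. The DKO list had no peak in the Ms4a3 window of 10 regions.

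Lyz2 and Cst7 differed from the rest in having a peak at the coding start in LT-HSC lists. The Lyz2 promoter region (chr10:117281235-117282598, over exon 1) was in every list but DKO. Its peaks were 1146 and 1316 bp wide in Daxx-WT and Daxx-KO LT-HSCs without a time, and 585 to 690 bp in CMPs and GMPs. The medians of all peaks were 889 and 916 bp in those LT-HSC lists and 607 to 661 bp in the CMP and GMP lists. Fold enrichment at the Lyz2 promoter was 4.52 and 5.1 in Daxx-WT and Daxx-KO LT-HSCs at 3 d.p.i. It was 6.35 and 4.83 in Daxx-WT and Daxx-KO KLS cells. The region 2.8 kb upstream of Lyz2 (chr10:117284783-117285513) was in CMPs and GMPs of both genotypes and in no stem-cell list. Lyz1, a close paralogue, lies just beyond, and reads that fit both genes could not be told apart here.

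The Cst7 promoter region (chr2:150569598-150570948) was in 9 of 11 lists, absent from Daxx-WT LT-HSCs at 3 d.p.i. and from DKO KLS cells. Its fold enrichment was 6.36 for Daxx-KO LT-HSCs at 3 d.p.i., 5.47 for Daxx-WT KLS cells and 7.18 for Daxx-KO KLS cells, values that passed 50.1%, 46.1% and 63.0% of the peaks in those lists. Upstream of it, a region centred 3.3 kb before the start (chr2:150566870-150567448) was in CMPs, GMPs and DKO KLS cells, and in no other stem-cell list. A region 11.6 kb upstream was in both LT-HSC lists without a time, both CMP lists, Daxx-KO GMPs and Daxx-KO KLS cells, but not in Daxx-WT GMPs or Daxx-WT KLS cells.

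Identical presence at any annotated start over all 11 lists was shared by 16 other protein-coding genes for Mpo, 20 for Elane, 22 for Prtn3, 9 for Ctsg, 44 for Ms4a3, 1098 for Lyz2 and 55 for Cst7. Promoters of 12 further genes of granule formation and the myeloid surface were counted in the same way. The proteoglycan gene Srgn, the protease activator Ctsc and the protease inhibitor Serpinb1a were among those with a peak in all 11 lists. Of the 12, 9 and 10 had a peak in Daxx-WT and Daxx-KO LT-HSCs (67.8% and 68.9% of all protein-coding genes). In CMPs 11 and 10 had one (65% and 61.7%), and in each GMP list 12 (62.9% and 60.4%). At 3 d.p.i. the counts were 6 and 9 (62.3% and 64.5%). In KLS cells they were 7 in Daxx-WT, 10 in Daxx-KO and 8 in DKO (58.7%, 62% and 51.1%). Prss57, a serine protease of the same granules, and Nkg7 had a promoter peak in the Daxx-KO and not the Daxx-WT list. This was so both at 3 d.p.i. and in KLS cells. How many of all protein-coding genes did the same was not counted. The Daxx-KO lists were also the longer ones in both populations, 44326 against 36949 and 44694 against 33325 peaks.

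The site tables give values per library, as reads in a site divided by the authors' constant for that library. A site is listed because it differed in these same libraries, so the tests below are not independent evidence, and a place that is not listed was not shown to be unchanged. In LT-HSCs at 3 d.p.i., 3 of 11927 listed sites lay near members. The site in Lpo shown above (chr11:87807801-87809050) had 120.21, 108.81 and 108.73 scaled reads in Daxx-KO, against 57.47 and 39.39 for Daxx-WT. All 3 Daxx-KO values were above both Daxx-WT values, a log2 fold change of 1.22 ± 0.25 (SE, limma; adjusted p = 0.301).

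The other sites at 3 d.p.i. were lower in Daxx-KO, as were 8451 of all 11927 listed sites. A site 22 kb downstream of the Lyz2 start (chr10:117260001-117260600) had 8.26, 5.73 and 14.78 scaled reads against 30.42 and 23.44, a log2 fold change of -1.48 ± 0.36 (SE, adjusted p = 0.31 by limma). A site 25.0 kb downstream of Elane, in R3hdm4 (chr10:79910801-79911650), had 17.44, 19.09 and 27.45 against 41.69 and 51.58. At a threshold of 0.05 on limma's adjusted p, 0 of these 3 sites and 0 of all 11927 (0% higher, 0% lower) were called, although 3 of the 3 and 11454 of all had an unadjusted p under 0.05. A listed higher site within 30 kb was found for 1 of 7 members (Mpo) and a lower one for 3 of 7 (Elane, Prtn3 and Lyz2), against 19.7% and 36.4% of all protein-coding genes.

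**Figure D3:**
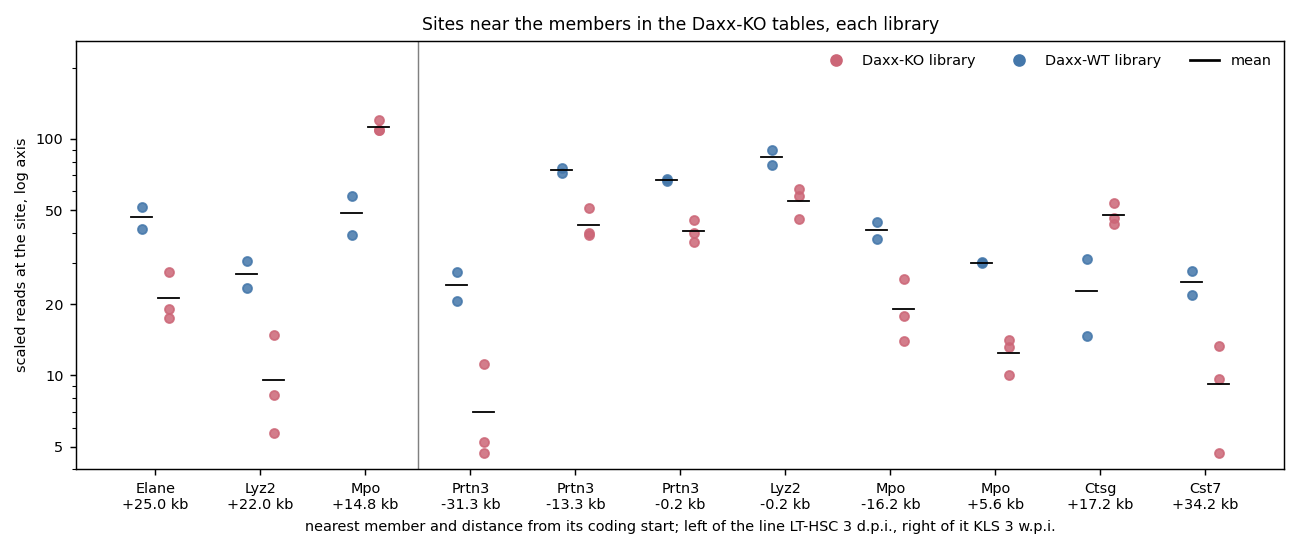
Scaled reads (log axis) in each Daxx-KO (red) and Daxx-WT (blue) library at the 11 listed sites near the members, 3 from LT-HSCs at 3 d.p.i. left of the line and 8 from KLS cells at 3 w.p.i. right of it; black bars are means. The groups do not overlap at any of these sites, which were listed for differing in the same libraries, and the Daxx-KO values are the higher ones only at Mpo +14.8 kb and Ctsg +17.2 kb.

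In Daxx-KO KLS cells 8 of 17311 listed sites lay near members, 7 of them lower. Lower sites were also the most frequent in the whole table, 14003 of the 17311. The site at the coding start of Prtn3 (chr10:79879051-79879850, over exon 1) had 40.08, 45.49 and 36.69 scaled reads in Daxx-KO, against 66.59 and 67.63 for Daxx-WT. The site over the Lyz2 start (chr10:117282101-117282850) had 45.65, 61.24 and 57.38 against 77.54 and 89.41. With the authors' scaling both starts thus had less signal in all 3 Daxx-KO libraries. The log2 fold changes were -0.71 ± 0.28 for Prtn3 and -0.61 ± 0.30 for Lyz2 (SE, adjusted p = 0.873 and 1 by limma). Mean scaled reads per window were 9.03, 3.98 and 5.27 in these Daxx-KO libraries and 7.6 and 8.61 in Daxx-WT. The order of single libraries at these starts thus depended on the scaling. In Mpo, a site in intron 8 (chr11:87798901-87799500) had 10.02, 13.12 and 14.11 against 30.10 and 29.80. The other 4 lower sites lay further out, 31.3 and 13.3 kb before the Prtn3 start, 16.2 kb before the Mpo start and 34.2 kb after the Cst7 start, with log2 fold changes of -1.71, -0.76, -1.10 and -1.42. Scaling to the mean number of reads per window raised the median of all sites by 0.47 on the log2 scale in this table and by 0.33 at 3 d.p.i.; no site near the members changed direction, but the Prtn3 and Lyz2 starts came to -0.23 and -0.12.

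The 1 higher site in Daxx-KO KLS cells was the start of Mcpt8 in the Ctsg window (chr14:56084951-56085800). It had 53.45, 43.74 and 46.09 scaled reads against 14.60 and 30.95, a log2 fold change of 1.12 ± 0.36 (SE, limma; adjusted p = 0.409). Ms4a3 had no listed site within 30 kb in either Daxx-KO table. None of the 8 sites, and none of all 17311 (0% higher, 0% lower), passed an adjusted p of 0.05 by limma, while 7 of the 8 and 16749 of all had an unadjusted p under 0.05. In simulated libraries of this table, limma found 58.5% of sites changed 4-fold and 0.0% of those changed 2-fold. The simulated table had a fixed dispersion and mostly unchanged sites, unlike the real one, whose sites were listed for differing. These shares therefore do not give the sensitivity of the fit above. Higher listed sites within 30 kb were found for 1 of 7 members (Ctsg; 15.8% of all genes) and lower ones for 5 of 7 (all but Ctsg and Ms4a3; 53.7%).

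In DKO KLS cells 47 of 50928 listed sites lay near the members. Of these, 39 were higher and 8 lower than in the Daxx-WT libraries, and of all listed sites 72.1% were higher. The Daxx-WT libraries are the same 2 used for Daxx-KO. By limma's adjusted p, 36 of the 47 rose (67.3% of all listed sites) and 3 fell (14.9%). All 7 members had a higher site within 30 kb (66.6% of all genes) and 5 a lower one (48.5%; not Ctsg or Cst7). These calls depended on the scaling. The DKO libraries had more reads per window after the authors' scaling, 10.6 and 15.0 against 7.39 and 8.19 in Daxx-WT, and scaling to that mean moved the median of all sites by -0.67 on the log2 scale. With that scaling 2 of the 47 sites were called higher and 7 lower, and calls over all listed sites were not counted under it. In direction, 39 of the 47 were higher with that scaling, against 71.9% of all listed sites. Leaving out either DKO library left 1 sample in that arm, assumed to vary like the Daxx-WT libraries, and 0 of the 47 sites were then called, although no direction changed; the log2 fold change at the Ctsg promoter site was 1.59 without replicate 1 and 2.08 without replicate 2.

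Ctsg had the densest run, 11 higher sites and 0 lower. The site over exons 1 to 3 (chr14:56100801-56102600) held 291.61 and 207.98 scaled reads in DKO, against 46.15 and 100.91 for Daxx-WT, a log2 fold change of 1.83 ± 0.36 (SE, limma; adjusted p = 2.79e-05). The Mcpt8 start (chr14:56084551-56085900) had 160.12 and 100.24 against 15.97 and 41.68, the highest log2 fold change of the 47 at 2.25 ± 0.36 (adjusted p = 1.63e-07). The DKO values lay above the Daxx-WT values at all 11 sites, which had log2 fold changes of 1.16 to 2.25, and of 0.48 to 1.57 when scaled to the mean per window. The SE was the same at every site because limma shared 1 variance over the table. It and the adjusted p therefore do not measure the spread at a given site, such as 15.97 and 41.68 in Daxx-WT at the Mcpt8 start. With the mean scaling the Ctsg promoter site was not called (1.15, adjusted p = 0.195), and of the 11 only the site 18.1 kb upstream, at Gzme, was (1.27, adjusted p = 0.0352).

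At Elane the site over the promoter (chr10:79885551-79886950, exons 1 and 2) had 104.98 and 134.91 scaled reads in DKO, against 48.81 and 61.42 for Daxx-WT, a log2 fold change of 1.11 ± 0.36 (SE, limma; adjusted p = 0.0243). It was 0.42 with the mean scaling and no longer called. At Mpo 9 sites were higher, 6 of them over the gene with log2 fold changes of 1.01 to 1.40, but none covered the coding start. At Lyz2 the site furthest upstream (chr10:117306601-117307850) had 66.81 and 78.70 against 14.20 and 16.45, and it stayed called under the mean scaling (log2 fold change 2.17, and 1.5 by that scaling with limma's adjusted p = 0.00879).

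The 3 called lower sites in DKO lay near Ms4a3, Mpo and Lyz2. The site 27.5 kb downstream of the Ms4a3 start (chr19:11612651-11614100) had 49.84 and 50.59 scaled reads in DKO and 134.89 and 119.55 in Daxx-WT libraries (-1.32 ± 0.36, SE, limma; adjusted p = 0.00391). The site in Lpo 18.1 kb downstream of the Mpo start (chr11:87811101-87812250) had 24.39 and 50.59 against 78.98 and 81.16 (-1.16, adjusted p = 0.0152), and the site 7.5 kb downstream of the Lyz2 start (chr10:117274501-117275200) had 27.57 and 28.11 against 50.58 and 68.00 (-1.05, adjusted p = 0.0385). These 3 calls also held under the mean scaling, at -2.01, -1.85 and -1.73. Each overlaps a region held by both LT-HSC lists without a time and by the Daxx-WT and Daxx-KO KLS lists and absent from the DKO list; both LT-HSC lists at 3 d.p.i. held the regions at Mpo and Lyz2 but not the one at Ms4a3.

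**Figure D4:**
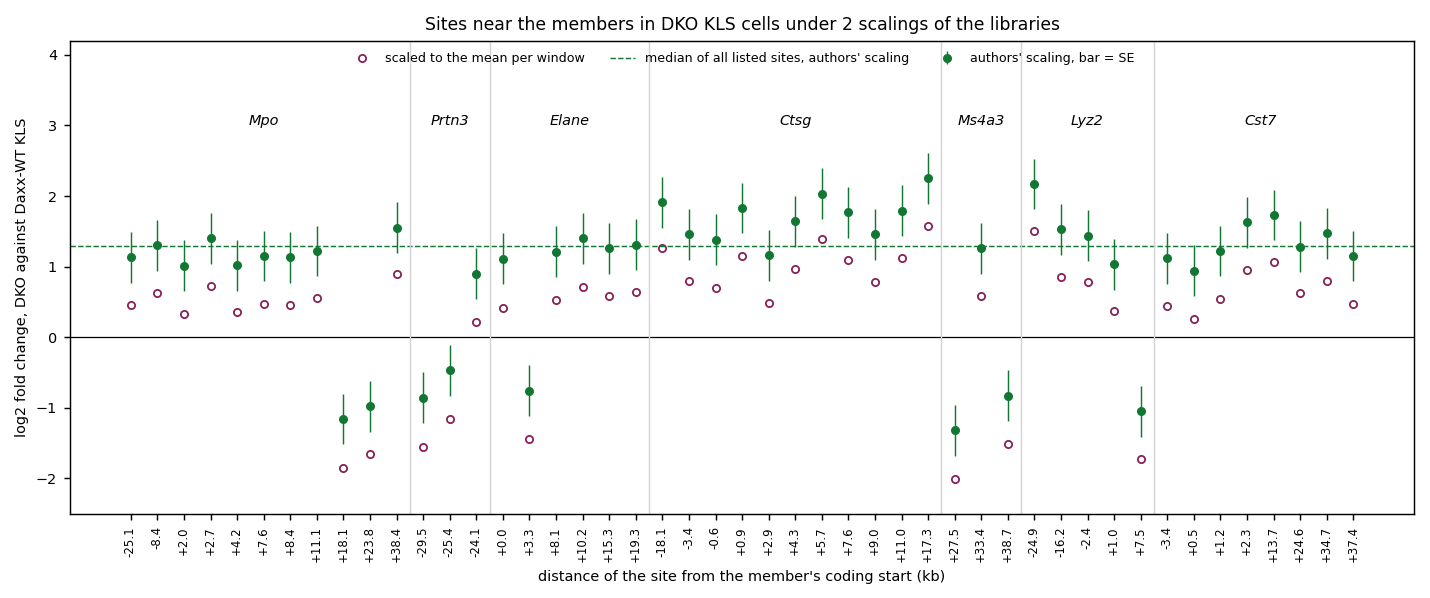
Log2 fold change (limma, DKO against Daxx-WT KLS cells) at the 47 listed sites near the members, ordered by gene and by distance from the coding start in kb; filled points with SE bars use the authors' scaling, open points the mean per window, and the dashed line is the median of all listed sites, 1.29. The 11 Ctsg sites are all above 0 under both scalings, and the 8 lower sites lie at Mpo, Prtn3, Elane, Ms4a3 and Lyz2.

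Promoters of markers of other cell types also differed in the DKO list. Of the late neutrophil markers, Camp, S100a8 and Ngp had a promoter peak in DKO KLS cells (3 of 5), whereas the Daxx-WT and Daxx-KO KLS lists had 1 of 5 (Ltf). All 5 had one in Daxx-WT GMPs. Of all protein-coding genes, 51.1% had a promoter peak in the DKO KLS list, 58.7% in Daxx-WT KLS, 62% in Daxx-KO KLS and 62.9% in Daxx-WT GMPs. Of the mast cell and basophil markers, only Mcpt8 of 4 had a peak in DKO KLS cells, and Cpa3, Gzmb and Fcer1a had none; Cpa3 alone had one in the Daxx-WT and Daxx-KO KLS lists. Among stem-cell markers, Fgd5, Hlf and Mecom had a peak in DKO (3 of 5), as in Daxx-WT KLS cells (3 of 5), and Daxx-KO had 4 of 5. The lineage gate used for ATAC-seq included Gr-1 and CD11b, which mark neutrophils. In sorted populations, more cells of a type and more open chromatin per cell cannot be told apart, and the part of these cells in the DKO values was not tested.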

How the data were processed

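ATAC-seq was done on 24 libraries in 11 groups. Reads were processed with CASAVA 1.8.4, cutadapt 1.13, STAR 2.5.3 and bedtools on mm10, according to the submitters' processing notes. The authors deposited 1 peak list for each group, with libraries pooled or combined; 5 lists give a fold enrichment for each peak, which is the deposited ratio, and repeated intervals were counted once with their highest fold. The authors' 3 diffReps 1.55.6 tables (windows of 600 bp, step 50 bp, listed at p under 0.0001) hold, per the file headers, reads divided by a constant per library; their columns of fold changes and p-values were not used.

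Members and gene lists were chosen with earlier results of these data known. Peaks were merged where they overlapped or touched, and a list held a region by 1 bp or more. Named were the 7 members, their promoters (within 1000 bp of a GENCODE M21 start), listed sites within 30 kb, distal regions of GMPs and regions that differed between genotypes. Values were fitted as log2(value + 1) over all sites of a table with limma 3.58.1 in R 4.3.3, and p-values were adjusted (Benjamini-Hochberg) over the 413247, 407030 and 446463 windows of the headers. Simulated data had a fixed dispersion and 200 changed sites per table. In them limma recovered 91.5%, 58.5% and 95.5% of sites changed 4-fold in the LT-HSC, Daxx-KO KLS and DKO KLS tables. It recovered 0.0% of sites changed 2-fold in each table. The real tables hold only sites listed for differing, so these shares do not give the sensitivity of the real fits. Total depth per library is not given in the sources used here; the headers give means of 4.21 to 16.0 reads per window.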

Additional observations from a re-analysis of the deposited data

How the results depend on the processing

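Among the 11 sites near members in the Daxx-KO tables and the 47 in the DKO table, no direction turned under a pseudocount of 0.1, a minimum mean of 10 scaled reads, the mean scaling, any left-out library or, for KLS cells, a replicate block. The Daxx-KO tables had 0 calls throughout. The DKO count of 39 became 9 with the mean scaling (2 higher and 7 lower, 5 of them among the 39) and 73 with windows of 100 kb; over the left-out libraries it ranged from 0 to 34, with 0 without DKO replicate 1, 0 without DKO replicate 2 and 18 without Daxx-WT replicate 1. A lone DKO library was assumed to vary like the Daxx-WT ones. Calls over all listed sites were not counted under the mean scaling. With the replicate block the DKO count was 40. Same-numbered libraries deviated together by a correlation of at most 0.05 in size, so the numbers did not pair the libraries. No paired analysis was possible for LT-HSCs at 3 d.p.i. because the header names carry no replicate numbers. An edgeR test was not run, since each cell of the tables holds several libraries. The 56 regions were 32 with windows of 10 kb and 124 with 100 kb. With 10 kb, the LT-HSC lists held 40.6% (Daxx-WT) and 40.6% (Daxx-KO) of regions, and Daxx-WT LT-HSCs at 3 d.p.i. held 22.2% of GMP regions.

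Cutting the 5 scored lists to 22156 peaks left the 3 d.p.i. lists with 10.7% of regions each and 14% of GMP regions each, Daxx-WT KLS with 14.3% and Daxx-KO KLS with 12.5%. Regions in 1 list alone then came to 25% each (Daxx-WT and Daxx-KO at 3 d.p.i.) and to 11.1% (Daxx-KO) and 22.2% (Daxx-WT) in KLS cells. Between DKO and Daxx-WT they came to 52.9% (DKO) and 29.4% (Daxx-WT). Shares over all regions of the series were not counted for the cut lists. Asking a peak to cover the larger part of a region, chosen after seeing the data, gave 39.3% of regions for Daxx-KO CMPs, 21.1% of GMP regions for Daxx-WT LT-HSCs at 3 d.p.i., 43.6% only in Daxx-WT CMPs and 47.8% only in Daxx-KO LT-HSCs at 3 d.p.i. By construction every peak lies inside its region, so the planned rule of mutual cover changed nothing. Promoters within 500 bp gave the same counts as 1000 bp; principal coding starts alone gave 2, 2 and 1 members for Daxx-WT LT-HSCs, Daxx-KO LT-HSCs and DKO KLS cells.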
